A study of Rattus norvegicus with 24 samples.

Results

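The comparison described here was that of skin from castrated male rats given dihydrotestosterone (DHT) with skin from castrated males given vehicle. Its members were the arrays with skin as the labelled tissue, 3 with DHT and 3 with vehicle, which are 6 of the 24 arrays of a study that also covered prostate, forebrain and ovary. All 6 were labelled as castrated Sprague-Dawley males of 12 weeks. They had received 10 mg/kg DHT or vehicle in 1 intraperitoneal dose 3 days after castration, and RNA was taken 16 h after that dose. The body site and depth of the skin are not given in the sources used here. The series' design speaks of biological replicates, while no label ties an array to an animal. The p-values below therefore measure the spread between these samples. RNA was amplified, labelled with Cy3 and read on 1-colour Agilent arrays.

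DHT is the potent androgen that 5-alpha-reductases make from testosterone, and it acts through a nuclear receptor that binds DNA and changes the transcription of its target genes. In skin androgens are known to act on dermal papilla fibroblasts, which send growth signals to the hair follicle, and on sebaceous glands, whose size and lipid output depend on androgens. Several androgen targets, among them Fkbp5 and Zbtb16, also respond to glucocorticoids and progestins.

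The levels below are log2 values of the background-corrected signal, with the 75th percentile of each array set to 0, so that a difference of 1 is a 2-fold difference. The labelled tissue was checked on the basal keratinocyte keratins. Krt5 had a level of 5.63 to 6.36 on the 6 skin arrays, against 2.31 to 2.56 on the 6 prostate and -3.80 to -3.13 on the 5 forebrain arrays used. Krt14, its partner in basal cells, had 6.67 to 8.25 in skin, 2.49 to 4.26 in prostate and -3.50 to -1.52 in forebrain. Both keratins were thus far higher in skin than in the other tissues on every array.

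The skin arrays differed in brightness and in the tissue they held before any effect of DHT was considered. The share of probes well above background was 72.9%, 54.6% and 64.9% on vehicle arrays 1, 2 and 3 and 55.1%, 67.9% and 67.3% on DHT arrays 1, 2 and 3, so that each group had 1 dim array. Vehicle array 1 was also the brightest and DHT array 1 the dimmest by its 75th percentile, at a signal of 379 and 55.4. The correlation of levels over the tested genes was lowest between these arrays (0.809) and highest between vehicle array 3 and DHT array 2 (0.975), across the groups. Each skin array lay on a slide of its own, so that slide and group cannot be told apart within skin.

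Skeletal muscle genes set vehicle array 1 apart. The list held 30 measured muscle genes (contractile proteins, creatine kinase, myoglobin and the like). Over the 25 members with a value on every array, the mean level was -2.66 on vehicle array 1, 5.13 on vehicle array 2 and 5.56 on vehicle array 3. It was 6.79, 5.23 and 6.49 on DHT arrays 1, 2 and 3. Of 25 members with a value on every array, 24 were lowest on vehicle array 1 and 19 highest on DHT array 1, against 23.9% and 31.8% of all genes. Acta1, the actin of skeletal muscle fibres, had -1.37 on vehicle array 1 and 8.52 to 9.92 on the others. On vehicle array 1, 26 of the 30 genes were still well above background. The log2 of the summed signal of the 25 members was 6.67 there, against 12.2 to 14.0 on the others. Muscle transcripts were thus far lower in 1 of the 3 vehicle samples than in the other 5 samples.

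Hair follicle genes set DHT array 1 apart. The list held 15 measured hair keratins and proteins of the hair shaft and inner root sheath. Over the 14 members with a value on every array, the mean level was 4.00, 2.69 and 3.19 on the vehicle arrays. It was -1.61, 2.47 and 3.38 on DHT arrays 1, 2 and 3. Of 14 members with a value on every array, 13 were lowest on DHT array 1, against 24.7% of all genes. On that array 6 of the 15 genes were not well above background. Krt25, a keratin of the inner root sheath, had -0.39 there and 6.78 to 8.32 on the other arrays. Because muscle and follicle content moved with 1 array of each group, most lists and the main genes below are also given with vehicle array 1 and DHT array 1 both left out, which leaves 2 arrays against 2. In a whole-tissue sample, fewer cells of a type and less RNA per cell cannot be told apart.

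**Figure D1:**
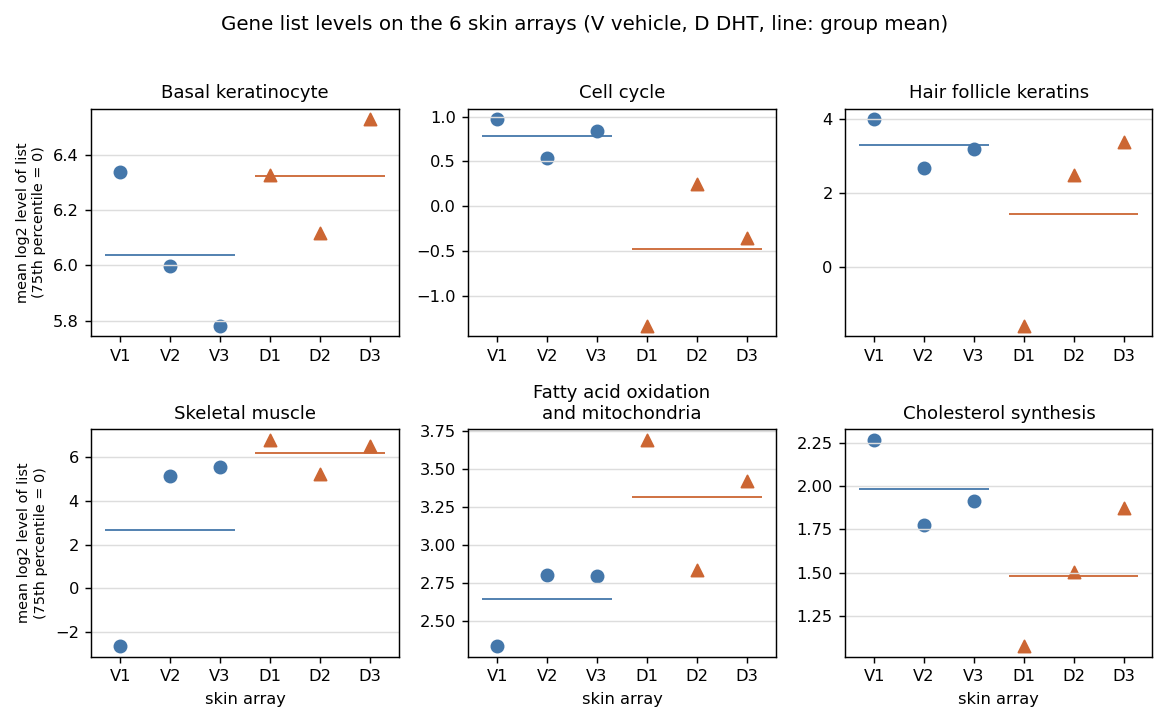
Mean log2 level of 6 gene lists (vertical axis, 75th percentile of the array = 0) on each skin array (horizontal axis, V vehicle, D DHT), with a line at each group mean. Skeletal muscle genes were at -2.66 on V1 and at 5.13 to 6.79 on the other arrays, hair follicle genes at -1.61 on D1 and at 2.47 to 4.00 on the other arrays, and all 3 DHT arrays lay below all 3 vehicle arrays for cell cycle genes.

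No gene changed with DHT in skin at an adjusted p under 0.05. Of 25734 genes tested with limma (6587 with a symbol), 0 passed (0% of the genes tested) and the lowest adjusted p was 0.755. At an unadjusted p under 0.05 stood 1275 genes (4.95%), 618 with a higher (2.4%) and 657 with a lower level with DHT (2.55%). In 3139 genes (12.2%) the groups did not overlap, with all DHT arrays above all vehicle arrays in 1557 (6.05%) and below them in 1582 (6.15%). The median log2 difference of all genes was 0.05, with 53.7% of the genes above 0 and 46.3% below. The values below therefore describe levels on these 6 arrays and make no gene a call. The genes named by rank were the 12 higher and 12 lower genes with the smallest unadjusted p among genes that differed at least 2-fold without overlap and were well above background on every array of the brighter group, a rule that 108 higher and 137 lower genes met.

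Pdk4, a mitochondrial kinase that restrains the use of glucose for oxidation, had the largest difference among the 12 higher genes. Its level was -4.69, -2.87 and -1.95 on the vehicle arrays and 1.09, -0.45 and 0.52 on the DHT arrays, a difference of 3.56 ± 0.74 (SE, n = 3 each, limma unadjusted p = 0.00224, adjusted p = 0.755). The groups stood apart on every array, with the lowest value on the vehicle array low in muscle transcripts. Without vehicle array 1 and DHT array 1 the difference was 2.45 (unadjusted p = 0.00482), and it was 2.48 with the muscle score of each array as a covariate.

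The other higher genes included chaperones, a transcription factor and enzymes of retinoid and lipid metabolism. Zbtb16, a zinc finger transcription factor known as a target of several steroid receptors, had -1.71, -2.56 and -1.45 with vehicle and -0.21, -0.79 and -0.28 with DHT. Its difference of 1.48 ± 0.37 (unadjusted p = 0.00560) was 1.97 on its other probe and 1.47 without both arrays, so that it hardly depended on them. Cryab, a small heat shock protein abundant in muscle, had 4.61, 6.71 and 6.57 with vehicle and 8.49, 7.87 and 8.69 with DHT, a difference of 2.39 ± 0.60. The difference was 1.64 without both arrays. Bag3, the co-chaperone that works with small heat shock proteins, had 3.51, 4.14 and 3.74 against 5.20, 4.75 and 4.68 (1.08 ± 0.29, and 0.78 without both arrays). Aldh1a1, an enzyme of retinoic acid synthesis, had -0.27, 0.55 and -0.42 against 2.19, 1.67 and 0.86 (1.62 ± 0.44).

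Steap3, a reductase of iron uptake, had the smallest standard error of the 12. Its level was -2.88, -2.73 and -2.76 with vehicle and -1.56, -1.56 and -1.80 with DHT, a difference of 1.15 ± 0.24 that was 1.06 without both arrays. Ces1e, a carboxylesterase, had -3.55, -3.14 and -2.94 against -0.56, -1.87 and 0.52 (2.57 ± 0.59, and 2.37 without both arrays). Cyp2b12, a cytochrome P450 known from rat sebaceous glands, had -3.26, -3.73 and -4.04 against -1.48, -2.77 and -1.51 (1.76 ± 0.43, and 1.75 without both arrays). The remaining genes were Ppm1e, a protein phosphatase (1.99 ± 0.34), Fut7, a fucosyltransferase that makes selectin ligands (1.59 ± 0.37), Adgrg2, an adhesion receptor (1.35 ± 0.31), and Tssk1b, a kinase known from testis (1.27 ± 0.33). With vehicle, Ppm1e passed the background limit on 1 array, and Fut7, Adgrg2, Tssk1b and Cyp2b12 passed it on 2.

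Among the 12 lower genes were 2 keratins of simple epithelia, 2 mitotic genes and genes of signalling and transport. Krt18 had -0.05, 0.50 and 0.68 with vehicle and -2.47, -1.91 and -1.23 with DHT, a difference of -2.25 ± 0.40 (unadjusted p = 0.000854). It had -1.92 on its other probe and -2.16 without both arrays, and all arrays of the groups were apart. Krt19, which marks cells of the follicle bulge and of glands, had -1.56, -1.87 and -1.53 against -3.66, -3.13 and -2.70 (-1.51 ± 0.32, and -1.22 without both arrays). Krt8, the usual partner of Krt18, showed no such separation, with -2.26, -3.40 and -2.89 against -4.65, -3.55 and -1.30.

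Slc13a5, a citrate transporter, had -0.97, -0.28 and -0.94 with vehicle and -4.62, -2.77 and -2.44 with DHT (-2.55 ± 0.60, and -1.99 without both arrays). Aldh1a3, another enzyme of retinoic acid synthesis, had -2.31, -2.26 and -2.29 against -4.10, -3.40 and -3.19 (-1.28 ± 0.31, and -1.02 without both arrays), opposite in sign to Aldh1a1. Prr5l, a partner of the mTORC2 complex, had -0.94, -0.92 and -0.55 against -2.26, -2.11 and -2.01 (-1.32 ± 0.25, and -1.33 without both arrays). The other lower genes were Pask, a PAS domain kinase (-1.88 ± 0.36), Adcy8, an adenylyl cyclase (-1.33 ± 0.28), Dyrk3, a dual-specificity kinase (-1.15 ± 0.27), Pex5l, a relative of a peroxisomal import receptor (-2.61 ± 0.60), and the mitotic genes Aurka and Kif2c described below. Cabp1, a neuronal calcium-binding protein, was at least 1.90-fold lower with DHT, since it was not well above background on any DHT array (measured difference -2.53 ± 0.51). It passed the filter on its vehicle arrays alone.

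The 24 genes named by rank kept their direction, where they were tested, with either content score as a covariate and under each scaling. That is no independent support, since they were picked on these arrays for differences of at least 2-fold without overlap. Each content score also sets mainly 1 array apart. Muscle was at -2.66 on vehicle array 1 and at 5.13 to 6.79 on the others. Hair was at -1.61 on DHT array 1 and at 2.47 to 4.00 on the others. The 24 genes also kept their direction with 1 array left out, but the rule of choice fixed that in advance, since groups without overlap keep their sign. Of the 24, 10 were well above background on all 6 arrays. Without vehicle array 1 and DHT array 1, 22 had a value and 21 of these an unadjusted p under 0.05, where 1.61% of all genes stood higher and 1.41% lower. Since the genes were picked on these arrays, that count is a description. The exception was Aldh1a1, with a difference of 1.20 (unadjusted p = 0.0556).

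**Figure D2:**
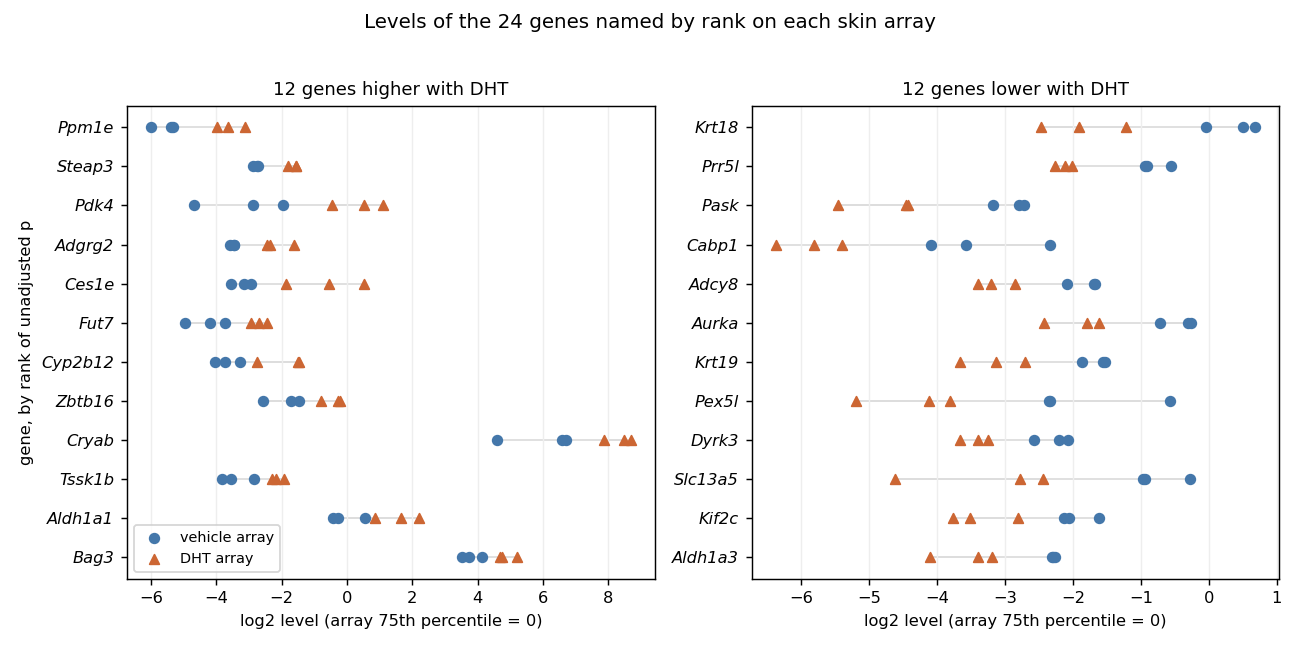
Log2 level (horizontal axis, 75th percentile of the array = 0) of the 12 higher and 12 lower genes named by rank, with circles for vehicle arrays and triangles for DHT arrays. The groups did not overlap in any of the 24, by the rule of choice, and Pdk4 had the widest gap of the higher genes, from at most -1.95 with vehicle to at least -0.45 with DHT.

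Of 22 measured steroid hormone targets of skin, 13 had a higher level with DHT and 9 a lower one. At an unadjusted p under 0.05 stood 4 higher genes (Pdk4, Zbtb16, Fkbp5, Glul) and 1 lower gene (Ddit4), and 6 lay above and 1 below without overlap. Over all genes 2.4% were higher and 2.55% lower at that p, and 6.05% lay above and 6.15% below without overlap. Fkbp5, a co-chaperone that tunes steroid receptors, had 2.76, 2.40 and 2.15 with vehicle and 3.47, 3.16 and 3.84 with DHT. Its difference was 1.05 ± 0.30 (unadjusted p = 0.0110), 0.54 and 1.45 on its other probes, and 1.22 without both arrays. Glul, which makes glutamine, had 1.57, 2.41 and 1.34 against 3.07, 2.57 and 2.56 (0.96 ± 0.36), but -0.16 on its other probe. Ddit4, an inhibitor of mTORC1 signalling, had -0.27, -0.79 and -0.56 against -1.24, -1.83 and -1.15 (-0.86 ± 0.30).

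The mean level of the list was 1.04, 1.0 and 0.94 on the vehicle arrays and 1.39, 1.30 and 1.37 on the DHT arrays, while its median difference was 0.10, close to the 0.05 of all genes, and 0.36 without both arrays. All DHT arrays lay above all vehicle arrays in this mean. Tsc22d3, the glucocorticoid-induced leucine zipper, had 3.64, 4.02 and 4.08 against 4.40, 4.35 and 4.35 (0.45 ± 0.25, unadjusted p = 0.115). Klf9, a steroid-responsive Krüppel-like factor, had 1.95, 2.62 and 2.45 against 3.39, 2.46 and 3.03 and overlapped, as did the kinase Sgk1 (difference 0.04 ± 0.40) and the clock gene Per1 (-0.09 ± 0.31). Zbtb16 and Fkbp5 gave the same direction with and without the 2 arrays, as genes whose groups do not overlap must. The median of the list was 0.29 with the muscle score and 0.33 with the hair score as a covariate, so that it lay close to that of all genes with the 6 arrays as they are and above it in these settings.

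The promoter of Pdk4 is shown because the gene had the largest difference among the steroid receptor targets. It is the stretch of 250 bases before the RefSeq gene start on build GRCr8, minus strand, chr4:34568330-34568579. The search was for the palindromic response element of steroid receptors, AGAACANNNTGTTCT, and for its half-site TGTTCT, on both strands.
Pdk4: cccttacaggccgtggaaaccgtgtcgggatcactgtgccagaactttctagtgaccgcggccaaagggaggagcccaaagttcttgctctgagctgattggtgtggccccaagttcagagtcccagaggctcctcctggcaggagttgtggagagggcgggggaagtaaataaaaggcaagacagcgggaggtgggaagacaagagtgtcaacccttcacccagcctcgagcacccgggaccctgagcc
Neither was found in this window, which says nothing about binding elsewhere. Of 20 listed targets with a promoter entry, 0 held the palindrome and 1 (Sult1a1) the half-site. Over all 33469 promoters of this length the palindrome was found in 0.0120% and the half-site, which it contains, in 17.5%.

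Genes of androgen synthesis and breakdown included some lower members. Of 20 measured genes of androgen metabolism and steroid receptors, 12 were higher and 8 lower with DHT, 3 of the lower ones at an unadjusted p under 0.05. Over all genes 2.55% were lower at that p. Srd5a1, a 5-alpha-reductase that makes DHT, had -0.95, -1.77 and -2.10 with vehicle and -2.89, -3.25 and -2.18 with DHT (-1.17 ± 0.42). Its groups did not overlap, by a gap between -2.10 and -2.18, and the difference was -0.78 without both arrays (unadjusted p = 0.138). Hsd11b2, which inactivates glucocorticoids, had 0.15, 1.01 and -0.76 against -2.05, -1.14 and -1.96 (-1.85 ± 0.50, and -1.67 without both arrays), and Hsd3b1, a steroid dehydrogenase, had -3.15, -2.33 and -2.85 against -4.94, -4.45 and -3.20 (-1.42 ± 0.49, and -1.24 without both arrays). Esr1, the estrogen receptor alpha, was not well above background on any vehicle array and was at least 1.93-fold higher with DHT. It passed the filter on its DHT arrays alone, and 0 higher members of this list, Esr1 included, stood at an unadjusted p under 0.05.

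The general androgen response list, drawn largely from prostate, had 16 of 22 members lower with DHT and a median of -0.35. Of its 4 members at an unadjusted p under 0.05, all lower, Krt19 is described above, Hmgcs1 and Acsl3 belong to lipid synthesis and Cenpn to the centromere. Over all genes 2.55% were lower at that p. Odc1, the first enzyme of polyamine synthesis, had 2.12, 2.14 and 2.69 against 1.89, 2.07 and 1.31 (-0.56 ± 0.32). Without both arrays the median of the list was -0.06. Igf1, the growth factor that dermal papilla cells make under androgens, had 4.47, 4.29 and 4.20 against 4.63, 5.16 and 5.22, apart on every array. Its difference of 0.68 ± 0.27 (unadjusted p = 0.0432) was 0.94 without both arrays and 0.20 to 0.46 on its other 3 probes.

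Cell cycle genes had lower levels with DHT as a group. Of 31 measured members, 30 were lower, 17 at an unadjusted p under 0.05 and 18 without overlap, with a median of -1.34 against 0.05 over all genes. Of all genes 46.3% were lower, 2.55% at that p and 6.15% without overlap. The mean level of the list was 0.97, 0.54 and 0.83 on the vehicle arrays and -1.33, 0.25 and -0.35 on DHT arrays 1, 2 and 3. All DHT arrays lay below all vehicle arrays, by the least on DHT array 2. Aurka, the kinase that builds the mitotic spindle poles, had -0.27, -0.72 and -0.31 with vehicle and -2.43, -1.79 and -1.62 with DHT (-1.51 ± 0.32, unadjusted p = 0.00219), and -1.19 without both arrays. Kif2c, a kinesin that corrects chromosome attachment, had -1.62, -2.14 and -2.06 against -3.51, -2.81 and -3.77 (-1.43 ± 0.34).

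Birc5, which encodes survivin, a subunit of the chromosomal passenger complex, had 2.0, 1.54 and 1.71 with vehicle and -1.07, 0.76 and 0.23 with DHT. The difference of -1.78 ± 0.49 was -1.13 without both arrays (unadjusted p = 0.0158). Stmn1, a microtubule-destabilizing protein, had 4.92, 4.76 and 4.27 against 1.54, 3.70 and 3.13 (-1.86 ± 0.57, -1.69 on its other probe). Rrm1, the large subunit of ribonucleotide reductase, had -0.03, -0.37 and -0.28 against -1.16, -0.90 and -1.0 (-0.79 ± 0.25). In each of these genes every DHT array was below every vehicle array, and DHT array 1 was the lowest.

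The cyclin-dependent kinase Cdk1 (4.11, 3.54 and 4.13 against 0.50, 3.35 and 2.51) and the cyclins Ccnb1 (1.75, 1.13 and 1.85 against -1.40, 1.0 and 0.01) and Ccna2 (2.35, 1.53 and 2.08 against -1.60, 1.1 and 0.34) followed the same order. DHT array 2 came close to vehicle array 2 in all of them. The D-type cyclins, which act before division and take part in growth signalling, differed less, with -0.13 ± 0.28 for Ccnd1 and -0.92 ± 0.44 for Ccnd2. Hmmr was the member with a higher mean, and its groups overlapped.

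DHT array 1, the array with few hair follicle transcripts, was the lowest array in 26 of the 31 cell cycle genes, against 24.7% of all genes. Without vehicle array 1 and DHT array 1, 31 of 31 members were lower, 7 at an unadjusted p under 0.05, with a median of -0.88. Over all genes the median was 0.02, with 47% lower and 1.41% lower at that p. DHT arrays 2 and 3 lay below vehicle arrays 2 and 3 in 19 of the 31 genes, as did 14.3% of all genes. The hair keratin score of those 4 arrays was 2.47 and 3.38 with DHT and 2.69 and 3.19 with vehicle. With the hair score as a covariate the median was -0.76, and with the muscle score -1.17. The part of follicle content in the cell cycle difference beyond these values was not tested.

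**Figure D3:**
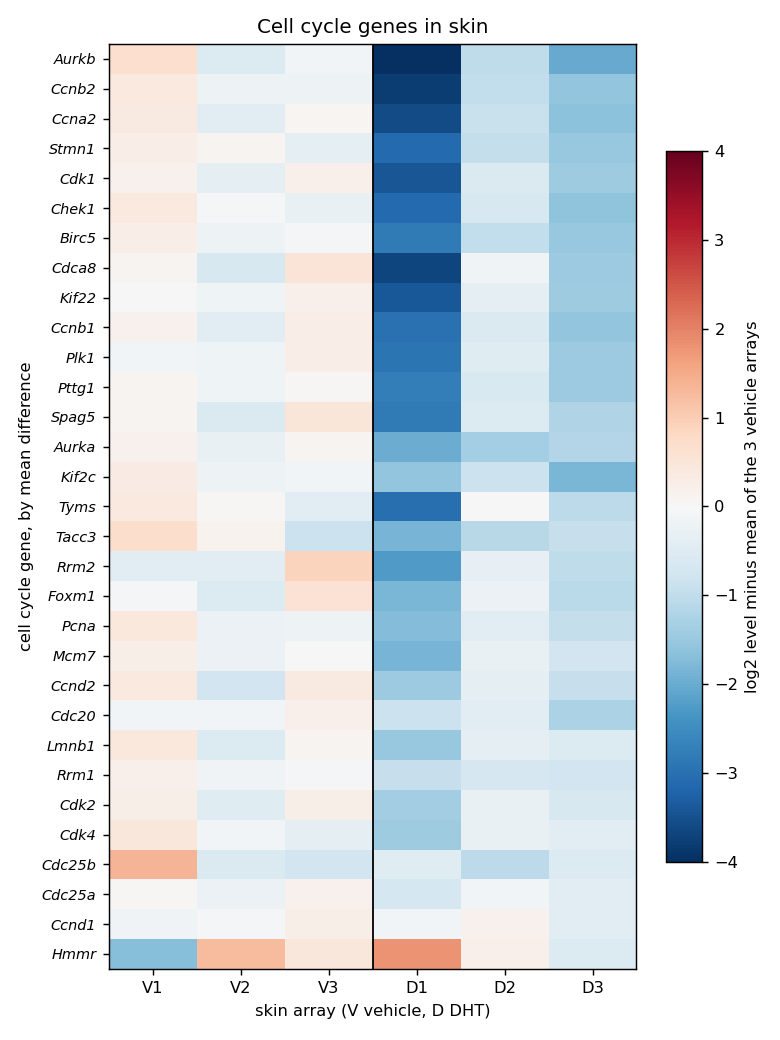
Log2 level of each of 31 cell cycle genes (rows) on each skin array (columns, V vehicle, D DHT) minus the mean of the 3 vehicle arrays, with colours limited to the range from -4 to 4. D1 was the lowest array in 26 genes, and D2 and D3 lay below V2 and V3 in 19.

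Promoters of 3 cell cycle genes are shown because members of the list moved together, with 2 elements known from promoters of cell cycle genes in human and mouse, the CCAAT box (CCAAT) and the cell cycle genes homology region (TTTGAA). Both strands were searched in the 250 bases before each RefSeq start on build GRCr8, and the capitals mark the matches. Birc5 lies at chr10:103571896-103572145 on the plus strand, Stmn1 at chr5:151964929-151965178 on the plus strand and Aurka at chr3:181560770-181561019 on the minus strand.
Birc5: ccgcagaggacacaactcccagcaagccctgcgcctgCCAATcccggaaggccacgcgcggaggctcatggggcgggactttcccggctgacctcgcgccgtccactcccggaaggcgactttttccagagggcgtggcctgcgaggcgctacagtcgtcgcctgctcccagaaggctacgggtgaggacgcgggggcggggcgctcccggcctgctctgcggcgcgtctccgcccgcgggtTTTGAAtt
Stmn1: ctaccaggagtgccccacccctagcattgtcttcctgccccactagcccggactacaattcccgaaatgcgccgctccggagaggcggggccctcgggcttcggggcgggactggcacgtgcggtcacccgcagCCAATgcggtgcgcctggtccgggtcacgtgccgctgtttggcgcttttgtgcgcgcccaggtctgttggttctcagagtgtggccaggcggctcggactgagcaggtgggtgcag
Aurka: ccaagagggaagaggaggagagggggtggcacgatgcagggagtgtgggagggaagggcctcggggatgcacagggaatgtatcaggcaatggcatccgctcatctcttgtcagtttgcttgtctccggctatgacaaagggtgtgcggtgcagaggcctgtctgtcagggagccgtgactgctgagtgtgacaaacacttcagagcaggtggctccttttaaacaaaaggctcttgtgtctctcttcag
Birc5 held 1 of each element, Stmn1 1 CCAAT box and Aurka neither, although its difference had the smallest p of the list. Of the 25 cell cycle genes with a promoter entry, 20 held CCAAT and 11 held TTTGAA. Over all promoters the shares were 34.0% and 16.2%. A match is a run of letters and no evidence of binding.

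Hair follicle keratins followed DHT array 1 and not the groups. That list had 14 of 15 members lower with DHT and a median of -2.13, but 0 at an unadjusted p under 0.05 and 0 without overlap. Without both arrays 8 of 14 were lower and the median was -0.19. Padi3, the deiminase that hardens the inner root sheath, had 7.39, 6.03 and 6.85 with vehicle and 0.30, 6.80 and 6.79 with DHT. S100a3, a calcium-binding protein of the hair cuticle, had 7.36, 6.80 and 6.40 against -0.43, 4.90 and 6.47. Krt33a, a keratin of the hair cortex, stayed high on DHT array 1, with 6.94, 5.76 and 6.35 against 5.0, 5.75 and 6.42.

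Of 34 measured growth signals of the follicle, 13 were higher and 21 lower, with a median of -0.45 that became 0.02 without both arrays. Fgf18, which is known to hold mouse follicles in the resting phase, had 0.52, 0.40 and 0.40 with vehicle and 2.36, 1.1 and 1.49 with DHT. Its difference of 1.21 ± 0.37 (unadjusted p = 0.0141) was 0.89 without both arrays, and all arrays were apart. Wnt5a, a Wnt ligand of the dermal papilla and matrix, had 1.0, 0.45 and 0.71 against -3.26, -0.43 and 0.08 (-1.93 ± 0.84), with no overlap. Lef1, the transcription factor of the growing hair matrix, had 0.23, -0.85 and 0.22 against -5.42, -0.84 and -1.37, so that its difference of -2.41 ± 1.17 rested on DHT array 1 and was -0.79 without both arrays. Corin, a protease of the dermal papilla, overlapped (-1.56 ± 0.71).

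Most epidermal genes overlapped between groups. Of 6 basal keratinocyte genes 5 were higher, and 0 stood at an unadjusted p under 0.05. Krt5 had 6.31, 5.63 and 5.65 with vehicle and 5.64, 6.04 and 6.36 with DHT, and Krt14 had 7.89, 7.34 and 6.67 against 7.51, 7.60 and 8.25, both with overlap. Of 6 genes of differentiating cells, Ivl, the envelope protein involucrin, was lower (2.63, 1.98 and 2.69 against 0.04, 1.34 and 1.86, -1.35 ± 0.51, and -0.73 without both arrays) and its groups were apart. Krt1, the keratin of the spinous layer, overlapped (0.89 ± 0.67). Among 10 stress keratins and alarmins the median was 0.46, and 0.99 over the 8 tested without both arrays, where all 8 were higher. Vehicle array 1 was the highest array in 5 of the 10, against 28.5% of all genes.

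Sebaceous and glandular genes held several members with lower levels and some with higher ones. Of 12 sebaceous genes 9 were lower and 3 higher (median -0.43, and -0.32 without both arrays). At an unadjusted p under 0.05 stood 1 lower and 0 higher members, and 1 of each without both arrays. Over all genes 46.3% were lower, 2.55% at that p. Cyp2b12, named above and outside this list, was higher (1.76 ± 0.43, and 1.75 without both arrays). Mgst1, a microsomal glutathione transferase, had 3.57, 2.92 and 2.64 against 1.44, 1.82 and 2.30 (-1.19 ± 0.37, and -0.72 without both arrays), and Fabp5, a fatty acid carrier of sebocytes and keratinocytes, had 9.23, 9.73 and 9.98 against 6.47, 8.95 and 8.81 (-1.57 ± 0.68, and -0.98 without both arrays). Both were apart on every array. Scgb1d2 and Scgb1d4, secretoglobins of exocrine glands, differed by -3.95 ± 1.13 and -4.03 ± 1.21, and by -4.10 and -4.25 without both arrays. Scgb1d2 had 0.86, -2.69 and 1.28 with vehicle and -2.79, -4.51 and -5.10 with DHT, so that vehicle array 2 and DHT array 1 nearly met. Andpro followed them, with -1.58, -3.76 and 0.33 against -4.72, -4.69 and -5.60, and was well above background on 2 vehicle and 1 DHT array. Their list of 11 secretory genes had a median of -0.08, which turned to 0.44 without both arrays and to 0.48 with the muscle score and 0.22 with the hair score as a covariate.

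Skeletal muscle genes were higher with DHT in 30 of 30 members (median 3.66), with vehicle array 1 far below the others. Without both arrays 16 of 30 were higher and the median was 0.03. Eno3, the muscle enolase, shows the pattern, with 1.52, 9.67 and 9.94 against 11.65, 9.90 and 9.74. Spots of Tnni2, Myl11, Ckm, Actn3 and Myh4 on DHT array 2 were marked as outliers and left out, so these genes had 2 DHT values. Genes of slow fibres behaved differently. Myl3, Myl2 and Tnni1, slow-type light chains and troponin, were at 5.02, 4.27 and 5.22 on DHT array 3 and at -7.60 to 1.06 on the vehicle arrays. Myh7, the slow myosin heavy chain, had -3.89, -0.83 and 2.74 with vehicle and -0.89, -3.20 and 6.79 with DHT, and Tnnt1 5.09 on DHT array 3 and at most 0.48 elsewhere (both named after their values were seen). DHT array 3 was thus high in slow-fibre genes beside similar levels of fast-fibre genes, a difference within the DHT group whose part in these values was not tested.

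Csrp3, a muscle LIM protein of the Z-disc that senses stretch, stood out among 22 genes of muscle regulation. It had -7.61, 2.72 and 2.94 with vehicle and 5.58, 5.53 and 6.22 with DHT (6.42 ± 2.70, unadjusted p = 0.050). Without both arrays the difference was 3.04 (unadjusted p = 0.000360), while the list had a median of 0.36. Ankrd1, a stress-responsive partner of titin that was named after its values were seen, had -4.34 and -3.87 on vehicle arrays 2 and 3 and 0.52 and -0.90 on DHT arrays 2 and 3, but -4.64 on DHT array 1. Ucp3, a mitochondrial carrier of muscle, had -1.02, 0.59 and 0.84 against 2.19, 1.03 and 1.98 (1.59 ± 0.57, and 0.79 without both arrays).

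Genes of fatty acid oxidation and mitochondria were higher in 37 of 39 members, 5 at an unadjusted p under 0.05, with a median of 0.55. Over all genes 53.7% were higher, 2.4% at that p. DHT array 1 was the highest array in 33 and vehicle array 1 the lowest in 23, against 31.8% and 23.9% of all genes. These were the arrays with the most and the fewest muscle transcripts. Decr1, an auxiliary enzyme of beta-oxidation, had 3.38, 3.23 and 3.52 against 4.94, 3.96 and 4.13 (0.97 ± 0.33), and Hadha, the trifunctional protein, had 4.05, 4.45 and 4.56 against 6.06, 4.86 and 5.35 (1.07 ± 0.37). Both were apart on every array. Without both arrays 32 of 39 were higher, with a median of 0.21, and 0.36 with the muscle score as a covariate. Of 25 genes of glucose metabolism 18 were higher, and their median of 0.70 became 0.03 without both arrays.

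Cholesterol synthesis genes were lower in 21 of 22 members with a median of -0.48, 2 at an unadjusted p under 0.05 and 6 without overlap. Over all genes 46.3% were lower, 2.55% at that p and 6.15% without overlap. Acat2, which makes acetoacetyl-CoA, had 3.92, 3.88 and 3.98 with vehicle and 2.32, 3.21 and 3.37 with DHT (-0.96 ± 0.34). Hmgcs1, the next enzyme, had 4.23, 3.91 and 3.84 against 3.01, 3.28 and 3.50 (-0.73 ± 0.27). Both had groups apart, with DHT array 1 lowest. That array was the lowest in 15 of the 22 genes and vehicle array 1 the highest in 15, against 24.7% and 28.5% of all genes. Without DHT array 1 alone 20 of 22 were lower (median -0.27), and without both arrays 16 of 22 (median -0.15). Fatty acid synthesis genes had 16 of 21 lower (median -0.37, and -0.22 without both arrays), among them Fads1, a desaturase (-1.44 ± 0.47), Elovl6, an elongase (-1.20 ± 0.44), and Scd2, a stearoyl-CoA desaturase (-1.15 ± 0.47). In all 3 the groups did not overlap. Of 17 adipocyte genes 10 were lower (median -0.22, and -0.31 without both arrays), and the list had 1.50, 1.81 and 1.66 with vehicle and 1.73, 1.46 and 1.60 with DHT. Cidec, a lipid droplet protein (-0.86 ± 0.30), and Adipoq, the hormone adiponectin (-0.70 ± 0.28), were apart.

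Chaperone genes had a median of 0.13, with 16 of 26 higher, and of 0.27 without both arrays, with 21 of 26 higher, and their mean level was 3.22, 3.07 and 3.03 with vehicle and 3.24, 3.31 and 3.34 with DHT. Of 14 genes of insulin-like growth factors and binding proteins 12 were higher (median 0.37, and 0.32 without both arrays). Ribosome biogenesis and polyamine genes were lower in 23 of 26 members both with all arrays (median -0.33) and without both (-0.26). In that list Sat1, the enzyme that acetylates polyamines for export, had 3.75, 2.99 and 2.78 against -0.13, 1.67 and 1.93 (-2.02 ± 0.59, and -1.09 without both arrays), apart on every array. Of 23 immediate early genes 11 were higher and 12 lower (median -0.03), while 19 of 21 were higher without both arrays (median 0.33). Among them Nr4a3, an orphan nuclear receptor, had -2.26, -2.54 and -3.32 against -2.09, -1.18 and -1.0 (1.28 ± 0.42), again without overlap. Fos was higher without both arrays (1.17, unadjusted p = 0.00759) but had 0.72 ± 0.52 with all arrays, with 0.87 on vehicle array 1 and -0.87 and -0.89 on the other vehicle arrays.

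The remaining cell type lists varied between arrays more than between groups. Immune cell genes had a mean level of 1.30, 0.85 and 0.63 with vehicle and 0.91, 0.97 and 1.14 with DHT. Fibroblast and matrix genes had 2.76, 2.47 and 2.45 against 2.55, 3.08 and 2.77. Without both arrays the medians were 0.47 for immune cells (0.20 with all arrays) and 0.38 for fibroblasts and matrix (0.23 with all arrays). Schwann cell and nerve genes were at 0.25 on vehicle array 2 and at -2.21 to -1.61 on the other arrays, with 12 of 16 members highest on that array. Red blood cell genes were highest on vehicle array 1 in 4 of 4 members (Hbb 6.13, against 0.98 to 4.15 on the others). Cell junction genes were lower in 14 of 15 members (median -0.45, and -0.01 without both arrays), with Gjb2, a connexin, at 1.14 on DHT array 1 and 7.01 to 7.80 elsewhere. The medians of circadian clock (-0.01), interferon response (0.12) and the 2 melanocyte genes (0.02) were close to that of all genes, and none kept its sign in every setting. With 1 array left out they ran from 0.02 to 0.36 for the clock, from -0.05 to 0.16 for interferon response and from -0.25 to 0.23 for melanocytes.

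**Figure D4:**
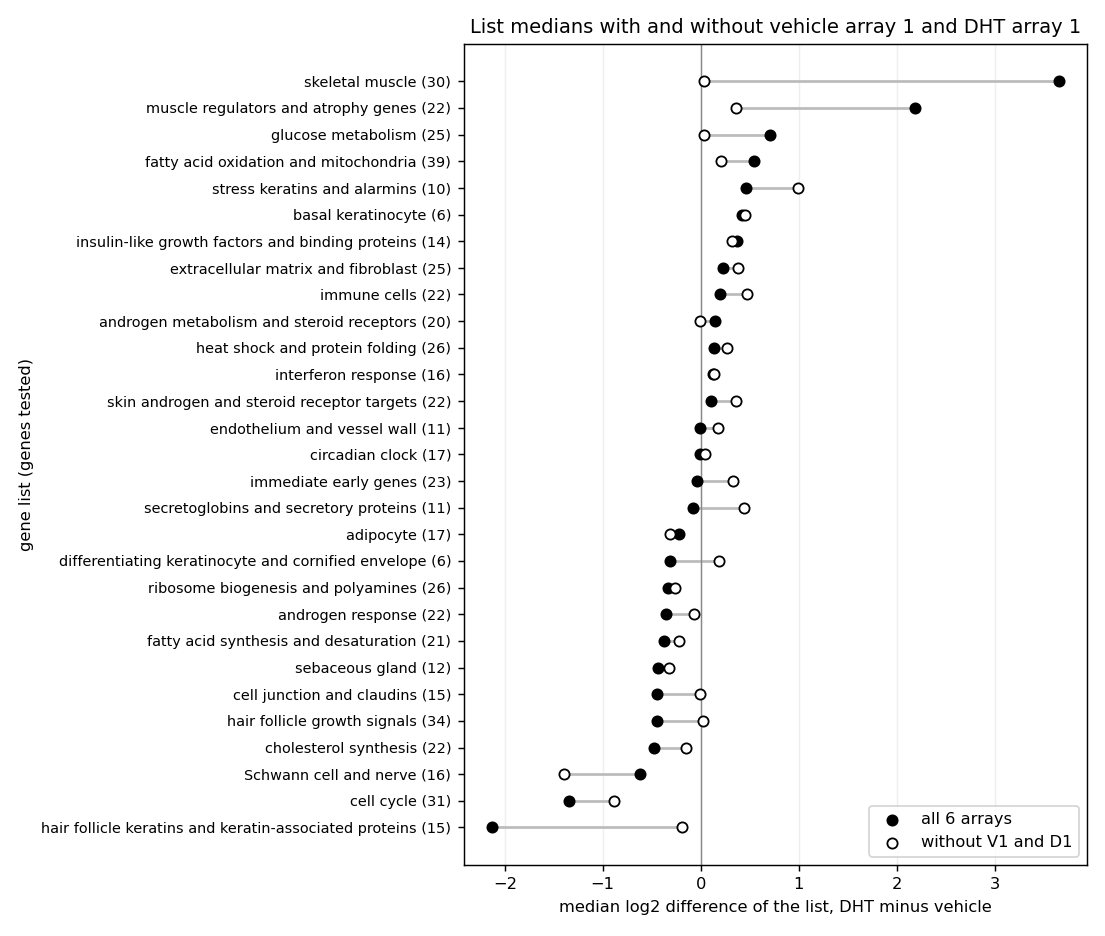
Median log2 difference, DHT minus vehicle (horizontal axis), of each gene list with at least 5 genes tested (rows, number tested in brackets), with all 6 arrays (filled) and without V1 and D1 (open). The medians of skeletal muscle (3.66 and 0.03) and hair follicle keratins (-2.13 and -0.19) shrank to near 0, and that of cell cycle went from -1.34 to -0.88.

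Whether skin differed from the other castrated-male tissues in its response was tested in a fit over 17 arrays of skin, prostate and forebrain, with slide as a random block. The difference between DHT and vehicle was not the same in skin and prostate for 873 of 32177 genes (2.71%), 309 with a higher (0.96%) and 564 with a lower value in skin (1.75%). That count was 316 without prostate vehicle array 1 and 395 without array 2, and 417, 412 and 407 without prostate DHT arrays 1, 2 and 3. Normexp gave 187, keeping dim probes 524 and dropping the slide block 499. The count was 1126 without vehicle array 1 and DHT array 1 of skin. In the same fit prostate had 1545 genes called (4.8%), 929 higher (2.89%) and 616 lower (1.91%), and forebrain had 16 (0.0497%), all of them lower (0.0497%). Skin had 0, with 2170 (6.74%) higher and 2179 (6.77%) lower at an unadjusted p under 0.05 and 46% of all genes below 0. In the limma fit of skin alone these shares were 2.4% and 2.55%. The fit over 3 tissues uses 1 spread per gene for all tissues, which can understate the error of skin where its arrays spread more. It also did not adjust for muscle or hair follicle content. Its p-values and standard errors for skin hold under these limits.

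Cholesterol synthesis showed the clearest contrast. Of 24 members tested, 17 differed, all with the lower value in skin, and 17 rose in prostate. Over all genes 1.75% had the lower value in skin and 2.89% rose in prostate. Hmgcs1 had a difference of -0.73 in skin and rose by 3.21 in prostate (difference between tissues -3.94 ± 0.34, limma adjusted p = 0.000132). Idi1, an isomerase of the pathway, had -0.95 in skin and rose by 3.09 in prostate. In skin 0 members were called.

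Of the steroid receptor targets, Fkbp5 rose in prostate by 2.51, more than its 1.05 in skin (difference -1.46 ± 0.34, adjusted p = 0.0417). Zbtb16 had 1.48 in skin, 1.40 in prostate and 1.23 in forebrain, and its differences between tissues were not called (0.08 ± 0.50 against prostate and 0.25 ± 0.54 against forebrain, adjusted p = 0.950 and 0.865). Pdk4 had 3.56 in skin, 0.32 in prostate and 0.04 in forebrain. The difference from prostate was 3.24 ± 0.74 (adjusted p = 0.0371) and that from forebrain 3.52 ± 0.79 (adjusted p = 0.151). Ces1e, which had 2.57 in skin, rose by 3.05 in prostate (adjusted p = 0.00384), and the difference between them was -0.47 ± 0.67 (adjusted p = 0.763). Odc1 had -0.56 in skin and 0.66 in prostate (difference -1.21 ± 0.29, adjusted p = 0.0413). Pdk4 and the other genes named by rank were chosen for their skin values, so that these differences are not independent of the choice.

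In this fit cell cycle genes had a median of -1.43 in skin, -0.68 in prostate and -0.14 in forebrain. In prostate 0 of 31 members were called, against 4.8% of all genes. Of the 31, 1 differed between skin and prostate, which is near the 2.71% of all genes. It was Kif2c, which had -1.43 in skin and 1.38 in prostate and was named by rank for its skin values. From forebrain 5 genes differed (0.0155%), 4 with a higher (0.0124%) and 1 with a lower value in skin (0.00311%), and that count ran from 0 to 38 with 1 array left out. They were Dyrk3 (-1.15 in skin and 1.11 in forebrain, difference -2.27 ± 0.31, adjusted p = 0.0372), Sostdc1, Itgb6, Aqp1 and a probe without a symbol, of which all but Dyrk3 were named after their values were seen.

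**Figure D5:**
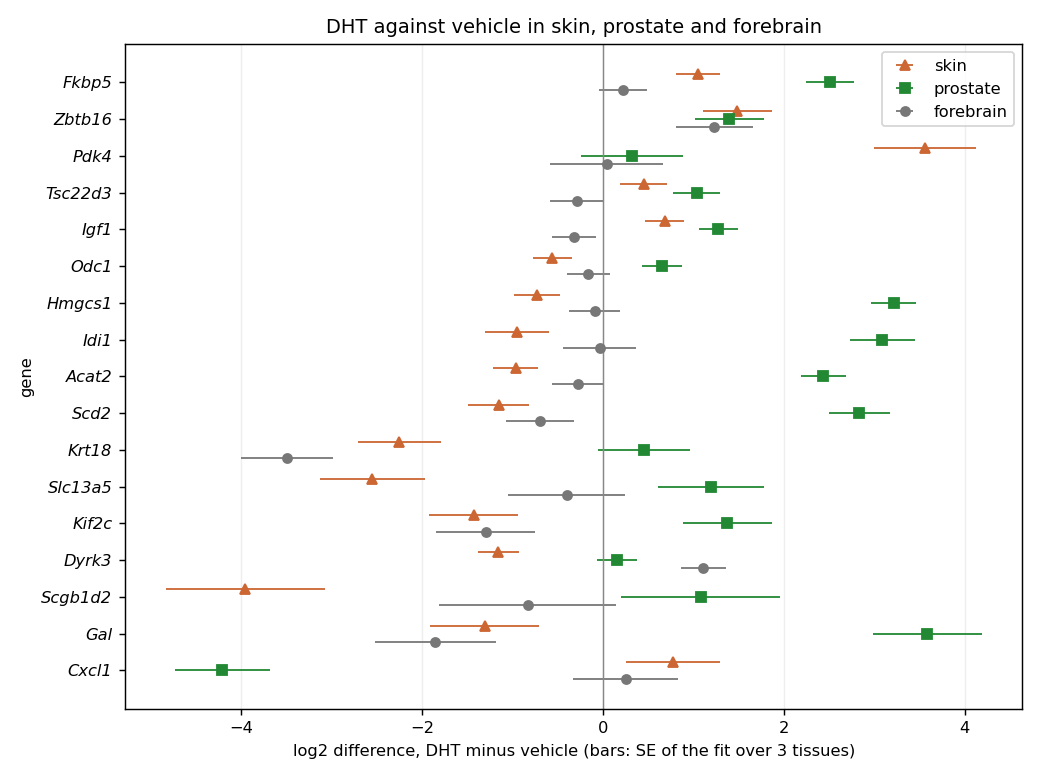
Log2 difference, DHT minus vehicle (horizontal axis, bars are SE of the fit over 3 tissues), of 17 genes in skin, prostate and forebrain. Zbtb16 lay at 1.48 in skin, 1.40 in prostate and 1.23 in forebrain, Pdk4 was at 3.56 in skin and near 0 in the others, and the lipid synthesis genes Hmgcs1, Idi1, Acat2 and Scd2 lay below 0 in skin and between 2.44 and 3.21 in prostate.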

How the data were processed

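Each deposited file held the linear-scale intensity of all spots on its array. Per the file headers these came from version 10.5.1.1 of Agilent Feature Extraction, while the submitters' processing notes give 10.1 and also name limma. The signal had been background-subtracted and detrended within each array, with no normalization between arrays. Of 42429 spots, 1417 controls were left out. Outlier spots were dropped singly, and 0 spots were saturated. Symbols were found for 10813 of 41012 probes (8945 symbols) by matching accessions to the GRCr8 RefSeq table, and 30199 probes were tested unnamed.

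From log2 of this signal the 75th percentile of the array was subtracted. A probe was kept if 3 or more of the fitted arrays called it well above background, the brightest probe stood for a gene, and skin was fitted with limma 3.58.1 in R 4.3.3 (lmFit, eBayes, Benjamini-Hochberg, threshold 0.05). Errors are standard errors of the fit. "At least" folds set the bright group against a floor, the larger of what the dim probe read and the faintest probe that passed the background limit, array by array. The number of arrays limits the precision. The fit over 3 tissues used the 17 arrays of castrated males (1 forebrain vehicle array failed quality control per its label), with a slide correlation of 0.127 estimated on 2000 genes. Ovary was not analysed here. The fits were tested on simulated data with the same spread for every gene and no differences in tissue content between arrays. That test therefore does not cover the content differences of these skin arrays.

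Members, the 31 gene lists (623 of 930 entries on the array) and the alternatives were chosen with earlier results of these data known. Lists are described by counts and medians. The genes named were the 12 higher and 12 lower genes by rank, 12 fixed genes (Fkbp5, Zbtb16, Pdk4, Tsc22d3, Sgk1, Per1, Klf9, Srd5a1, Odc1, Igf1, Krt5, Krt14) and, of each list, up to 5 members with the smallest unadjusted p and up to 3 with the highest level. Other members whose values are given (such as Cdk1, Ccnb1, Ccna2, Krt8, Myh7, Tnnt1 and Ankrd1) were chosen after their values were seen. Normexp used the median spot signal with an offset of 50, because the files hold no mean signal. Whether equal replicate numbers pair the arrays was checked on deviations from the group means, whose correlations were -0.43, -0.32 and -0.28, so no pairing was used. Some measured genes are not reported here.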

Additional observations from a re-analysis of the deposited data

Results flagged for a closer look

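The difference between DHT and vehicle was not the same in skin and prostate for 873 genes and not the same in skin and forebrain for 5, by the test of the difference itself in the fit over 3 tissues (limma, adjusted p under 0.05). These counts were not stable: with 1 array left out they ran from 316 to 1046 and from 0 to 38, and with the replicate number as a block, which does not pair these arrays, both were 0. Among the 220 genes named for skin, 30 differed from prostate and 1 from forebrain, against 2.71% and 0.0155% of all genes. Many were picked for their skin values, so that these tests are not independent of the choice.

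The values in this section are the DHT-minus-vehicle difference in skin minus that in prostate, and not levels. They were below 0 for these genes of cholesterol and fatty acid synthesis. The median difference of the cholesterol list was -0.48 in skin and 1.74 in prostate. On the log2 scale, skin minus prostate was -4.03 for Idi1, -3.98 for Scd2, -3.94 for Hmgcs1, -3.40 for Acat2 and -3.14 for Sqle. It was -2.94 for Fdps, -2.80 for Msmo1, -2.75 for Elovl6 and -2.06 for Acsl3. Adipocyte genes with a lower DHT-minus-vehicle difference in skin were Cidec at -2.45 and Pparg, the master factor of adipocytes, at -1.80.

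Of secretory genes, skin minus prostate was -5.03 for Scgb1d2 and -4.89 for the neuropeptide gene Gal. Andpro had a measured value of -7.00, which is uncertain because its probe was well above background on only 1 DHT and 2 vehicle arrays of skin. The chemokine gene Cxcl1 had 4.98 in the other direction. Of the genes named by rank, skin minus prostate was 3.24 for Pdk4, 2.41 for Fut7 and 0.93 for Steap3, and it was -3.74 for Slc13a5, -2.80 for Kif2c, -2.71 for Krt18, -1.36 for Prr5l and -1.31 for Dyrk3. Dyrk3 also differed from forebrain, by -2.27.

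Of 17 clock genes, 3 differed, against 2.71% of all genes. The median DHT-minus-vehicle difference of that list was -0.01 in skin and -0.40 in prostate. Skin minus prostate was 2.30 for Bhlhe40 and 1.71 for Nr1d1, both repressors of the circadian clock. Among the other named genes it was 1.37 for Klf6 and 1.23 for Plec, which encodes plectin. It was -1.46 for Fkbp5, -1.21 for Odc1 and -1.09 for Herpud1, a gene of the endoplasmic reticulum stress response.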

How the results depend on the processing

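The count of genes changed by DHT in skin was 0 under every alternative run with limma: quantile normalization, median centring, normexp, no filter, probes well above background on all arrays, array weights, either content score as a covariate, all probes singly, the fit over 3 tissues, and each array left out in turn. At an unadjusted p under 0.05 stood 554 (normexp) to 1728 (without vehicle array 3) of the genes in the fits of skin alone, with a lowest adjusted p of 0.189, without vehicle array 1 and DHT array 1. In the fit over 3 tissues it was 0.0940. With the replicate number as a block, 0 genes were called in skin (585 at an unadjusted p under 0.05), and the block left 0 of the 873 differences from prostate and 0 of the 5 from forebrain (lowest adjusted p = 0.120 and 0.960). Of the 31 lists, 17 had a median below 0, 11 (without vehicle array 1) to 19 with 1 array left out and 11 with the muscle score as a covariate. The 24 genes named by rank kept their sign wherever they were tested, which was 10 of them when probes had to be well above background on all arrays and 23 or 24 with 1 array left out. With arrays left out this sign was fixed in advance, because these genes were chosen for groups that did not overlap. Under the other settings the sign is no independent support, since the same arrays were used for the choice. With normexp 9 of the 24 had an unadjusted p under 0.05. The difference from prostate was called for 187 genes with normexp, 524 with no filter and 499 without the slide block, and for 316 to 1046 with 1 array left out. The difference from forebrain was called for 11 genes with quantile normalization, for 1 each with normexp, with no filter, without the slide block and without both skin arrays, and for 0 to 38 with 1 array left out, the 38 without forebrain vehicle array 1. Of 213 named genes with a value without vehicle array 1 and DHT array 1, 34 changed sign, and 7 of the 32 medians compared (31 lists and all genes) did so. The causes of these shifts were not tested beyond the fewer arrays or genes that each setting holds. Genes near background, such as Ppm1e and Cabp1, have values limited by signal over background.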
